A study of Mus musculus with 12 samples.

Results

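Solute carriers are membrane proteins that move amino acids, sugars, ions, metals, vitamins, nucleosides and metabolites across the cell surface or between organelles. The genes described here are those whose symbol in the array's annotation begins with Slc, a family number, the letter a and a member number, leaving out Slc2a1, Slc2a3, Slc6a13 and Slc16a5. A gene counted as measured when a probe for it was detected, with a detection value above 0.99, on at least 4 of the 12 arrays. Of 323 such symbols with a listed probe, 115 were measured, among 8100 measured genes in all. Of these, 111 encode transporters, and Slc4a1ap, Slc7a6os, Slc9a3r1 and Slc9a3r2 encode partner or neighbouring proteins that carry the prefix. Members were sorted into substrate classes by family number.

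The arrays held RNA from 3 populations of mouse lymphoid cells, with 4 arrays each. ITNK cells are natural killer-like cells that arise in culture from DN3 thymocytes after loss of Bcl11b, a transcription factor that keeps T cell precursors in the T lineage. LAK cells are natural killer cells expanded with IL-2, and DN3 thymocytes are the parental T cell precursors, which lack CD4 and CD8. The same protocol text stands on all 12 samples. It describes cells of mice with Cre-ERT2, a recombinase switched on by tamoxifen and not limited to a cell type by a promoter that the text names, and Bcl11b alleles flanked by loxP sites. Cells were given 1 µM 4-hydroxytamoxifen for 48 h, and sorted DN3 cells of the homozygous (Bcl11b CKO/CKO) and heterozygous (Bcl11b CKO/+) genotypes then grew on OP9-DL1 stromal cells with 100 ng/ml human IL-2, in medium with Flt3 ligand and IL-7, until RNA was taken 14 days after treatment. The text also describes cells of the spleen, enriched with a natural killer cell kit and expanded in IL-2 for several days, and calls them ITNK. The labels do not say which of these steps or genotypes apply to LAK or DN3, nor the animals' age. The strain label also differs by group, as C57B6 on ITNK, C57B8 on LAK and C57B7 on DN3, so strain label, treatment, culture and cell type cannot be told apart. The study asks how ITNK cells compare with the cells they came from and with natural killer cells.

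As background, lymphocytes that begin to divide take up more amino acids and glucose, and carriers at the cell surface, in the lysosome and in the inner mitochondrial membrane set what reaches the cytosol and the mitochondrion. Amino acid supply is sensed at the lysosome by the mTORC1 pathway, while a shortage raises the transcription factor ATF4, whose targets include several amino acid carriers. Zinc carriers of the Slc39 family bring zinc into the cytosol and those of the Slc30 family move it out, and adenosine, which restrains lymphocytes, enters cells through equilibrative nucleoside transporters of the Slc29 family.

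Each array detected 11814 to 13141 of 45274 probes. The titles of the 12 samples carry 2 chip numbers, which were read as 2 slides, though no label calls them so. Slide 1 held the LAK arrays and ITNK 1 and 2, and slide 2 held ITNK 3 and 4 and the DN3 arrays, so LAK and DN3 shared no slide. Bcl11b itself was at 9.10, 8.49, 8.38 and 8.39 on the ITNK arrays, 6.00, 6.01, 5.25 and 5.79 on the LAK arrays and 11.85, 11.41, 11.92 and 11.89 on the DN3 arrays, a log2 difference of -3.18 ± 0.20 (SE, adjusted p = 2.24e-08 in limma) between ITNK and DN3; whether its probe lies in the deleted part is not given. The summed level of 8 natural killer markers ran from 17787 to 23390 in ITNK, from 27860 to 33510 in LAK and from 868 to 1557 in DN3, in units of intensity. For 9 markers of T cell precursors the sum was 8389 to 10730 in ITNK, 590 to 950 in LAK and 20216 to 21118 in DN3, so the sums of ITNK lay between those of LAK and DN3 in both lists. Single markers did not all have this order. In limma 5 of the 8 natural killer markers were lower in ITNK than in LAK (15.7% of all genes). Of the 9 precursor markers 6 were lower in ITNK than in DN3 (28.2% of all genes). Cd28 was higher, with mean log2 intensities of 8.50 in ITNK, 8.09 in LAK and 7.69 in DN3. Ptcra, which marks DN3 cells, was detected on 0 arrays of ITNK and LAK and on 4 of DN3. Stromal markers such as Bgn and Cxcl12 (6 of 11 measured) summed to 690 to 1207 in ITNK, 35.1 to 43.1 in LAK, where they were detected on 0 arrays, and 1444 to 5102 in DN3. The haemoglobin gene Hba-a1 stood at 245 to 516 in ITNK, 7.54 to 27.8 in LAK and 25.7 to 38.2 in DN3, and 7 cell cycle genes summed to 5190 to 6909 in ITNK, 4156 to 7867 in LAK and 5560 to 7446 in DN3. Values below are log2 intensities after background correction and quantile normalisation. Differences are differences of group means on this log2 scale, given ± the standard error with the adjusted p of limma over 8100 genes. Nothing in the labels ties the 4 arrays of each group to separate animals or cultures, so the p-values reflect how far these samples vary among themselves, and that variation may be technical. In such bulk RNA, fewer cells of a type and less RNA per cell cannot be told apart.

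ITNK cells differed from DN3 in a set of carriers that included the hexose carrier Slc2a6, the riboflavin carrier Slc52a3, the zinc importer Slc39a4, the bicarbonate carrier Slc4a4 and the sodium-calcium exchanger Slc24a3, all higher in ITNK. The sugar carrier Slc5a9, the amino acid carrier Slc43a1 and the nucleoside carriers Slc29a1 and Slc29a3 were lower in ITNK than in DN3. Of the 115 members, 58 differed between ITNK and DN3 at an adjusted p under 0.05 (50.4%), against 51.7% of all genes. Among the members 26 were higher in ITNK (23.5% of all genes were) and 32 lower (28.2% of all genes), and 19 differed at least 2-fold (13% of all genes). Between ITNK and LAK 44 members passed (38.3%, all genes 33.7%), 27 higher in ITNK (all genes 18%) and 17 lower (all genes 15.7%), with 14 at least 2-fold different (all genes 8.91%). The counts at least 2-fold different depend on the processing, being 11 between ITNK and DN3 and 3 between ITNK and LAK in the authors' deposited table. The matching counts over all genes in that table are not given here. Between LAK and DN3 65 passed (56.5%, all genes 60.5%), 33 higher in LAK (all genes 28.6%) and 32 lower (all genes 31.9%), with 23 at least 2-fold different (all genes 20%). These shares lie near the background, and the median difference over members was -0.03 (ITNK minus DN3), -0.01 (ITNK minus LAK) and -0.01 (LAK minus DN3). For all genes these medians were -0.04, -0.01 and -0.02.

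The balance of higher and lower members depended on the scaling between arrays. With arrays centred on their medians in place of quantile normalisation, the median of all genes moved by 0.23 (ITNK minus DN3), -0.03 (ITNK minus LAK) and 0.26 (LAK minus DN3). The split of members called higher and lower then became 34 and 19 between ITNK and DN3, 19 and 16 between ITNK and LAK, and 47 and 21 between LAK and DN3. Under this scaling 3640, 2145 and 4560 of all 8100 genes passed in these comparisons. Their split by direction is not given here, so a lean of the members alone cannot be read from these counts. Of the members called before centring, 1 changed sign after it, Slc38a2 between LAK and DN3. A member detected only where it is high had to differ, so the 64 members detected on all 12 arrays are given apart: 31 passed between ITNK and DN3 (48.4%), 26 between ITNK and LAK (40.6%) and 33 between LAK and DN3 (51.6%). Of all 5835 genes detected on all 12 arrays, 51.6%, 29.5% and 59.1% passed in these comparisons.

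**Figure D1:**
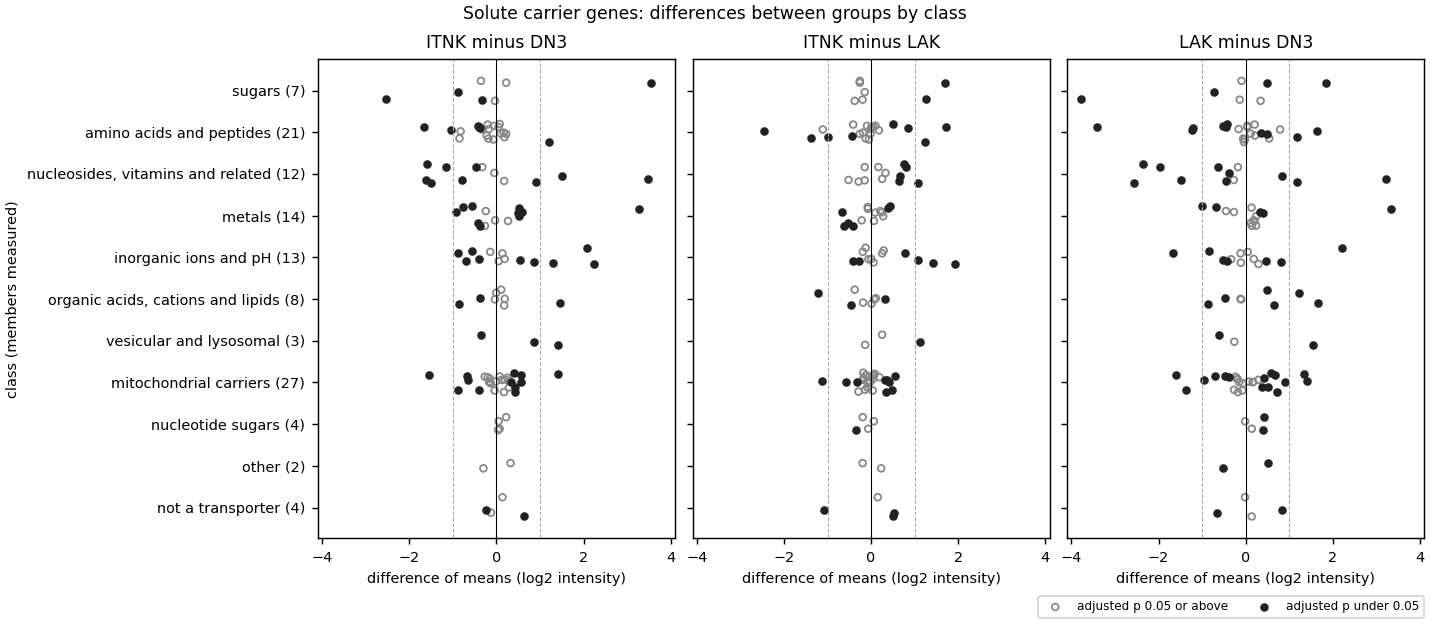
Difference of group means (x axis, log2 intensity) for each of the 115 members (points), in rows by class, for ITNK minus DN3, ITNK minus LAK and LAK minus DN3. Filled points passed at an adjusted p under 0.05 and dashed lines mark a 2-fold difference. The points farthest to the right for ITNK minus DN3 are Slc2a6 (3.54), Slc52a3 (3.48, detected on 0 DN3 arrays) and Slc39a4 (3.27).

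Slc2a6, Slc4a4, Slc9a2 and Slc15a1 were at least 2-fold higher in ITNK than in both other groups. Slc9a2 and Slc15a1 counted as measured only through the 4 ITNK arrays, so their direction was fixed by the detection filter. Slc2a6 encodes a hexose carrier of the facilitated glucose transporter family that sits on internal membranes, the lysosome among them. Its probe read 8.68, 8.73, 8.56 and 8.81 on the ITNK arrays, 7.79, 6.90, 6.53 and 6.77 on the LAK arrays and 4.97, 5.36, 5.46 and 4.82 on the DN3 arrays. The 3 groups did not overlap. The difference was 3.54 ± 0.22 against DN3 (adjusted p = 2.6e-08), 1.69 ± 0.22 against LAK (adjusted p = 4.34e-05) and 1.85 ± 0.22 between LAK and DN3 (adjusted p = 6.69e-06). The gene lies at chromosome 2, 27021363 to 27028000 (GRCm38.p6). The bases from 250 before to 50 after its start, from RefSeq (chr2:27027949-27028248, minus strand), are shown because it was among the members that differed most between ITNK and DN3. They hold no copy of the 6 motifs that were looked for, which are set out with the amino acid carriers.
Slc2a6: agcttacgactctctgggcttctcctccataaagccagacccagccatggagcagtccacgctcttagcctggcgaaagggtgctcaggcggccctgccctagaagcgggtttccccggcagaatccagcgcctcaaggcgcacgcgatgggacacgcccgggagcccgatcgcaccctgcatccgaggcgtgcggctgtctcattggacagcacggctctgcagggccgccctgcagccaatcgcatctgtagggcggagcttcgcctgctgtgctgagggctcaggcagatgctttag

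Slc4a4, an electrogenic sodium bicarbonate cotransporter that loads bicarbonate and raises pH, read 7.66, 8.05, 6.88 and 8.01 on the ITNK arrays, 5.69, 5.40, 6.43 and 5.32 on the LAK arrays and 5.59, 5.46, 5.18 and 5.44 on the DN3 arrays. The lowest ITNK array stood above the highest LAK array, and LAK and DN3 overlapped. The difference was 2.23 ± 0.26 against DN3 (adjusted p = 9.34e-06) and 1.94 ± 0.26 against LAK (adjusted p = 5.66e-05), and ran from 1.80 to 2.19 against LAK when 1 array at a time was left out. Slc9a2, a sodium-proton exchanger of the cell surface, was detected on 4 ITNK arrays and 0 others, at 5.96, 6.26, 5.77 and 5.83 on the ITNK arrays, 4.59, 4.50, 4.62 and 4.43 on the LAK arrays and 4.49, 4.76, 4.82 and 4.53 on the DN3 arrays. That made it at least 2.48-fold higher in ITNK than in DN3 and at least 2.68-fold higher than in LAK. Such bounds set the mean of the detected group against the lowest signal of any detected probe on each array of the other group, or the probe's own value where that was higher. Slc15a1, a proton-coupled carrier of short peptides best known from the intestine, followed the same pattern at 5.55, 5.67, 6.12 and 5.75 on the ITNK arrays, 4.77, 4.42, 4.49 and 4.42 on the LAK arrays and 4.57, 4.44, 4.64 and 4.61 on the DN3 arrays. It was at least 2.28-fold higher than in DN3 and at least 2.38-fold higher than in LAK. The values of both genes are a description, since the filter kept them for their ITNK arrays.

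**Figure D2:**
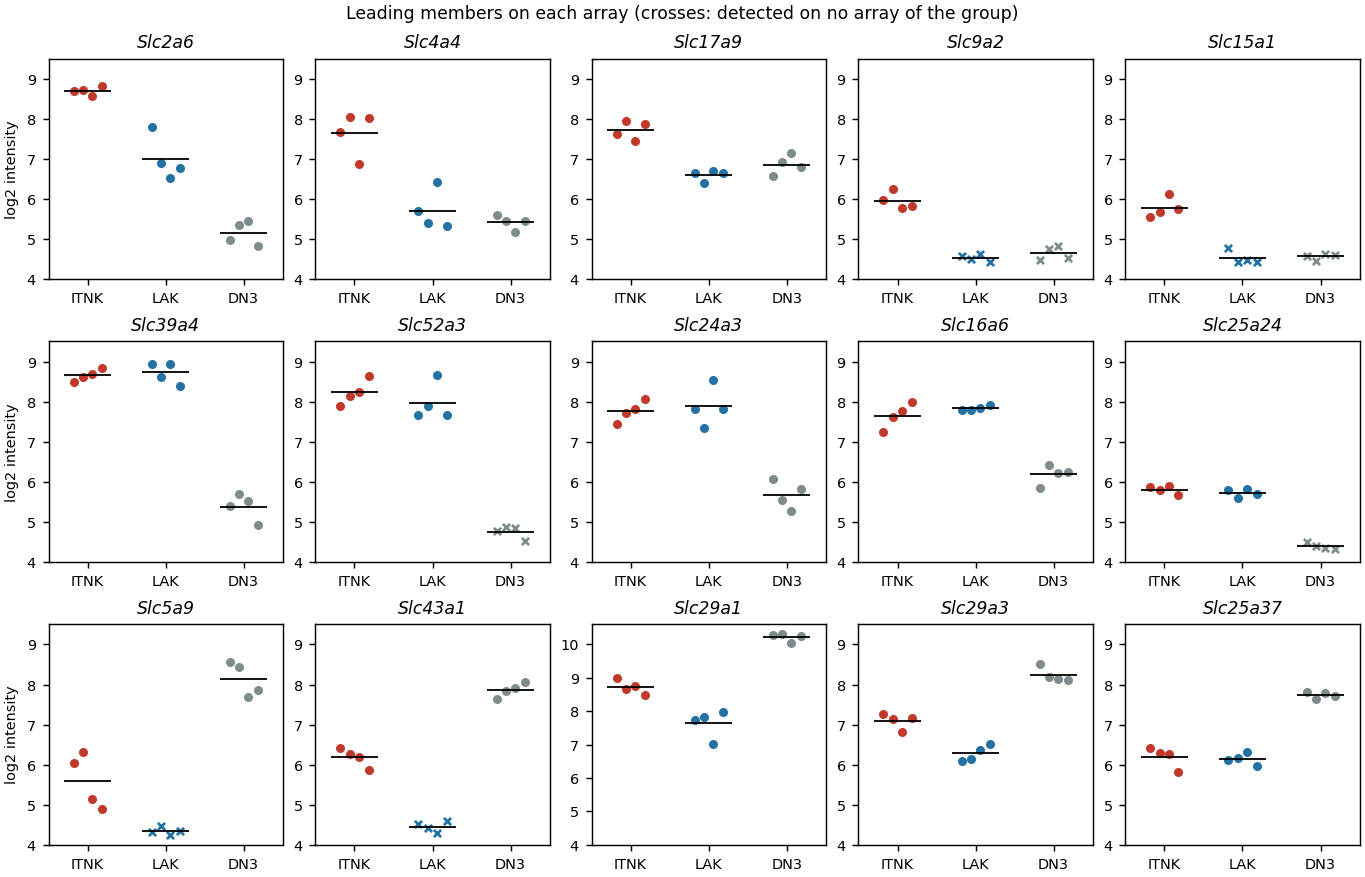
Log2 intensity (y axis) on each of the 4 arrays of ITNK, LAK and DN3 (x axis) for 15 members, with the group mean as a bar. Crosses mark groups in which the probe was detected on 0 arrays. The top row shows members highest in ITNK, the second row members high in both ITNK and LAK, and the third row members highest in DN3.

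Among the sugar carriers, Slc2a6 rose in ITNK and Slc5a9 fell. Of 7 measured, 1 was higher and 3 were lower in ITNK than in DN3 (median -0.33), 2 passed against LAK, both higher in ITNK (median -0.19), and 2 were higher and 2 lower in LAK than in DN3 (median -0.10). The shares called were 57.1%, 28.6% and 57.1%, against 51.7%, 33.7% and 60.5% of all genes. Slc5a9, a sodium-coupled carrier of mannose and related sugars in human cells, read 6.04, 6.31, 5.14 and 4.90 on the ITNK arrays, 4.33, 4.46, 4.26 and 4.34 on the LAK arrays and 8.55, 8.44, 7.69 and 7.88 on the DN3 arrays. ITNK lay between the other groups and overlapped neither. The difference was -2.54 ± 0.28 (adjusted p = 4.48e-06) against DN3. Since 0 LAK arrays detected it, it was at least 2.34-fold higher in ITNK than in LAK (adjusted p = 0.00304) and at least 13.7-fold lower in LAK than in DN3 (adjusted p = 3.82e-08). The ITNK arrays of slide 1 stood above those of slide 2, so within slides the difference was -3.12 against DN3 and 1.82 against LAK. Slc5a6, which shares the family number but carries biotin and pantothenate, was lower in ITNK than in DN3 (-0.88 ± 0.11, adjusted p = 1.41e-05) and lower in LAK than in DN3 (-0.73 ± 0.11, adjusted p = 4.66e-05).

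Of 21 members of the families that carry amino acids, peptides and related solutes, 6 passed between ITNK and DN3 (28.6%, all genes 51.7%). The difference in shares was not tested. Slc15a1 was higher, and 5, with Slc43a1, Slc38a9, Slc6a19 and Slc7a1 among them, were lower in ITNK (median over the class -0.18). Against LAK 4 were higher and 4 lower in ITNK (median -0.05), and between LAK and DN3 4 were higher and 6 lower in LAK (median 0.03). As shares of the class these were 38.1% and 47.6% (all genes 33.7% and 60.5%). Slc43a1, a facilitated carrier of branched-chain amino acids, read 6.42, 6.28, 6.18 and 5.87 on the ITNK arrays, 4.51, 4.42, 4.30 and 4.60 on the LAK arrays and 7.63, 7.84, 7.92 and 8.06 on the DN3 arrays, and the 3 groups did not overlap. The difference between ITNK and DN3 was -1.67 ± 0.13 (adjusted p = 1.91e-07). It was at least 3.29-fold higher in ITNK than in LAK (adjusted p = 1.5e-07) and at least 10.5-fold lower in LAK than in DN3 (adjusted p = 5.41e-11). A second detected probe of the gene gave -1.51 (adjusted p = 5.66e-05) for ITNK against DN3.

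Slc38a9, the lysosomal arginine sensor upstream of mTORC1, was at 5.77, 5.15, 5.14 and 5.37 on the ITNK arrays, 5.26, 5.41, 4.74 and 5.29 on the LAK arrays and 6.32, 6.10, 6.70 and 6.52 on the DN3 arrays. ITNK and LAK overlapped and both stood below DN3. The difference was -1.05 ± 0.18 (adjusted p = 0.000224) for ITNK and -1.24 ± 0.18 (adjusted p = 3.76e-05) for LAK. Slc6a19, a carrier of neutral amino acids known from kidney and gut, averaged 5.44 ± 0.26 in ITNK, 4.60 ± 0.16 in LAK, where it was detected on 0 arrays, and 5.81 ± 0.11 in DN3 (SD, n = 4). It was at least 1.8-fold higher in ITNK than in LAK (adjusted p = 0.000177) and at least 2.32-fold lower in LAK than in DN3 (adjusted p = 1.98e-06). Its difference between ITNK and DN3 (-0.37, adjusted p = 0.0277) did not pass when ITNK 1, ITNK 3, ITNK 4, DN3 2, DN3 3 or DN3 4 was left out (adjusted p up to 0.0861). Slc7a1, the main carrier of arginine and lysine in many cells, was detected on 1 ITNK array, 0 LAK arrays and 4 DN3 arrays, with means of 4.72 ± 0.33 in ITNK, 4.62 ± 0.19 in LAK and 5.14 ± 0.08 in DN3 (SD, n = 4 each). Only its DN3 arrays brought Slc7a1 through the detection filter, which favoured lower values in the other groups. Its call between ITNK and DN3 (-0.42, adjusted p = 0.0324) was lost when ITNK 1, ITNK 2, ITNK 3, DN3 1, DN3 2 or DN3 3 was left out (adjusted p up to 0.0884) and when slide entered the model as a block (-0.26, adjusted p = 0.252). Between LAK and DN3 it was at least 1.43-fold lower in LAK (adjusted p = 0.00895), and did not pass when slide entered the model as a block (-0.20, adjusted p = 0.554).

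Slc1a5, Slc7a3 and Slc1a4 were lower in ITNK than in LAK, and Slc1a5 and Slc7a3 were higher in LAK than in DN3. Slc1a5, the main sodium-coupled importer of glutamine in dividing cells, read 4.79, 5.15, 5.24 and 5.62 on the ITNK arrays, 5.95, 6.30, 6.21 and 6.31 on the LAK arrays and 5.06, 5.07, 4.95 and 4.99 on the DN3 arrays. The LAK arrays lay above all others, with -0.99 ± 0.15 (adjusted p = 0.000132) for ITNK against LAK and 1.17 ± 0.15 (adjusted p = 9.67e-06) for LAK against DN3, and all 3 detected probes were called the same way in both. ITNK and DN3 differed by 0.18 ± 0.15 (adjusted p = 0.32), and by 0.41 with slide as a block (adjusted p = 0.0383). Slc7a3, a carrier of cationic amino acids, read 4.47, 6.28, 4.47 and 6.88 on the ITNK arrays, 6.88, 7.81, 9.00 and 8.22 on the LAK arrays and 6.18, 6.46, 6.89 and 5.87 on the DN3 arrays. Within ITNK the arrays 1 and 3 lay below the limit of detection and the arrays 2 and 4 did not. The difference against LAK was -2.45 ± 0.53 (adjusted p = 0.00254), and ran from -2.91 to -2.10 when 1 array at a time was left out. Between LAK and DN3 it was 1.63 ± 0.53 (adjusted p = 0.0158), and this call was lost when LAK 3 was left out (adjusted p up to 0.0511) and when slide entered the model as a block (1.93, adjusted p = 0.128), the difference without LAK 3 being 1.29. Slc1a4, which carries serine, alanine and other small neutral amino acids, read 5.75, 6.88, 5.67 and 7.28 on the ITNK arrays, 6.85, 7.84, 8.74 and 7.69 on the LAK arrays and 7.58, 7.46, 7.15 and 6.78 on the DN3 arrays. ITNK and LAK overlapped, with a difference of -1.39 ± 0.40 (adjusted p = 0.0147, and 0.0648 within slide 1), and the difference from DN3 did not pass (-0.85 ± 0.40, adjusted p = 0.0881). LAK and DN3 also overlapped and did not pass (0.54 ± 0.40, adjusted p = 0.256).

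These carriers varied most among replicates. The pooled within-group SD was 0.91 for Slc7a3, 0.79 for the glycine carrier Slc6a9 and 0.68 for Slc1a4, against a median of 0.20 over members and 0.19 over all genes, and 0.235%, 0.333% and 0.605% of all genes had a larger one. Slc6a9, named here after its values were seen, read 4.84, 6.91, 5.27 and 7.0 on the ITNK arrays, 6.69, 6.74, 8.23 and 6.80 on the LAK arrays and 6.45, 6.52, 6.38 and 5.96 on the DN3 arrays. It passed in no comparison, with adjusted p of 0.584, 0.0777 and 0.152. In all 3 genes ITNK 2 and 4 lay above ITNK 1 and 3, an arrangement that crosses the slides, and LAK 3 was the highest LAK array. Some genes that ATF4 is known to raise, picked from a longer list, had the same order of ITNK arrays. How many of the list share it was not counted. The amino acid carriers Slc7a11 and Slc1a5 did not: ITNK 2 lay below ITNK 1 and 3 in Slc7a11 and below ITNK 3 in Slc1a5. Asns, asparagine synthetase, read 8.52, 10.41, 8.58 and 10.34 on the ITNK arrays, 10.24, 10.61, 11.17 and 10.52 on the LAK arrays and 9.95, 10.26, 10.16 and 9.89 on the DN3 arrays. Chac1, which degrades glutathione, read 6.98, 9.58, 6.09 and 9.47 on the ITNK arrays, 8.56, 9.80, 10.69 and 9.69 on the LAK arrays and 8.78, 8.83, 8.46 and 8.11 on the DN3 arrays. Trib3, a pseudokinase of the same response, read 7.78, 10.10, 6.75 and 9.80 on the ITNK arrays, 7.35, 8.65, 9.88 and 8.02 on the LAK arrays and 7.70, 8.32, 7.81 and 7.55 on the DN3 arrays. Of 14 measured genes of a list of 18 ATF4 response genes, 4 passed for ITNK against DN3 (3 higher, 1 lower, median 0.12), 2 for ITNK against LAK, both lower in ITNK (median -0.21), and 5 for LAK against DN3 (4 higher, 1 lower, median 0.60). These are 28.6%, 14.3% and 35.7% of the list, against 51.7%, 33.7% and 60.5% of all genes. Whether this spread bears on the group differences of Slc7a3 and Slc1a4 was not tested.

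**Figure D3:**
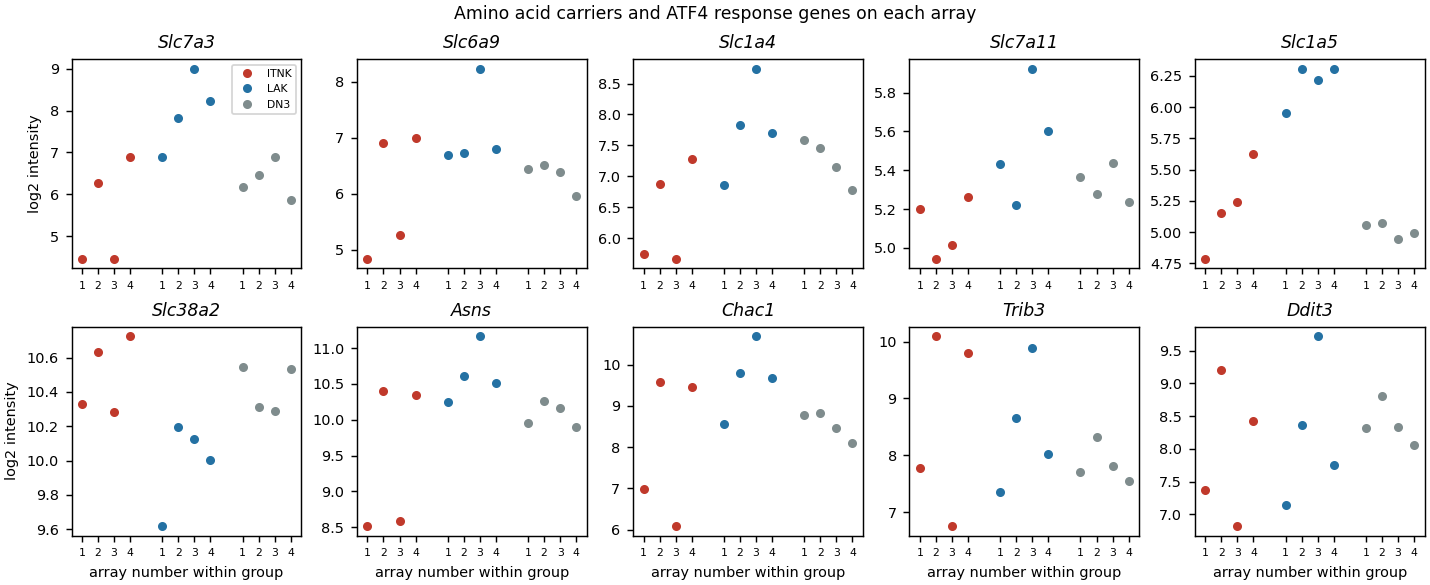
Log2 intensity (y axis, its range set for each gene) on each array, numbered 1 to 4 within ITNK, LAK and DN3 (x axis), for 6 amino acid carriers and 4 genes of the ATF4 response. The 4 response genes were picked from a longer list, and how many of that list share their order was not counted. In Slc7a3, Slc6a9, Slc1a4, Asns, Chac1, Trib3 and Ddit3 the arrays ITNK 1 and ITNK 3 lie below ITNK 2 and ITNK 4, and LAK 3 is the highest LAK array. This order of ITNK arrays does not hold in Slc7a11 and Slc1a5, where ITNK 2 lies below ITNK 3.

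The promoters searched were those kept from RefSeq (GRCm38.p6), and are not a count of all that it lists. Members such as Slc12a2 and Slc39a6 had no promoter in the kept set. The kept promoters covered 89 of the members and numbered 118 in all. Each was searched on both strands for TGATGNAA (the core of the element that ATF4 binds), CACGTG (an E-box), TTCNNNGAA (a STAT site), TGTGGT (a Runx site), TGCACNC (a metal response element) and AGGTGTGA (a T-box site). TGATGNAA was found in 4 of the members' promoters (3.39%) and in 3.97% of the 32841 kept for all genes, measured or not. The shares for members and for all genes were 12.7% and 7.15% for CACGTG, 4.24% and 8.3% for TTCNNNGAA, 9.32% and 16.8% for TGTGGT, 16.1% and 12.6% for TGCACNC, and 1.69% and 1.28% for AGGTGTGA. The members had passed the detection filter and this background had not. Being detected and being a member therefore cannot be told apart in these shares, and their differences were not tested. A match is a description of the letters and not a bound site. The promoters of Slc1a4 (chr11:20332664-20332963, minus strand), Slc7a11 (chr3:50443564-50443863, minus strand) and Slc43a1 (chr2:84840073-84840372, plus strand) are shown for the amino acid carriers described here, 5′ to 3′ with all motif copies in capitals. In Slc1a4 the capitals mark TGATGNAA on the opposite strand from position -4, and in Slc7a11 they mark TTCNNNGAA at -183 and TGATGNAA at -66 and, on the opposite strand, at -47, counted from the start of transcription with none of the copies overlapping. In Slc43a1 they mark CACGTG at -64.
Slc1a4: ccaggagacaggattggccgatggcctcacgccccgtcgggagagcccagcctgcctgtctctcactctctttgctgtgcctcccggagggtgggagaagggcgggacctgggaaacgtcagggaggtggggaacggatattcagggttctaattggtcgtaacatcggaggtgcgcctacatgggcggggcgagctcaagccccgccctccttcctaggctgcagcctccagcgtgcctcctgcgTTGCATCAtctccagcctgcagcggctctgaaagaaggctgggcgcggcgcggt
Slc7a11: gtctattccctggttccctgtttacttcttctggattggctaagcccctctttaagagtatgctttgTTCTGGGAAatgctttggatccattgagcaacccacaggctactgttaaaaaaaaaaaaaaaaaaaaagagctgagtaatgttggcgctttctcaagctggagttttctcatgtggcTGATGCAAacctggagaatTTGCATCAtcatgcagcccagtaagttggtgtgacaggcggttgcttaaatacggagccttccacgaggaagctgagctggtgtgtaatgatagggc
Slc43a1: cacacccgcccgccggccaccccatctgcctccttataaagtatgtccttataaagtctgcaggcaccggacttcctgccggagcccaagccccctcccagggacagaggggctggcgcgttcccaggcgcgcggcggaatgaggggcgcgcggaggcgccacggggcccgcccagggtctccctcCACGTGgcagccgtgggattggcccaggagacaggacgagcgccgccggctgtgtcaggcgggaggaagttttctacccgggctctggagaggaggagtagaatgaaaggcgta

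Slc7a11, the cystine-glutamate exchanger that supplies cysteine for glutathione, read 5.20, 4.94, 5.02 and 5.26 on the ITNK arrays, 5.43, 5.22, 5.92 and 5.60 on the LAK arrays and 5.36, 5.28, 5.44 and 5.24 on the DN3 arrays. The groups overlapped, and its difference between ITNK and LAK (-0.44 ± 0.14, adjusted p = 0.0238) was not called when LAK 3, LAK 4, ITNK 2 or ITNK 3 was left out (adjusted p up to 0.0676) and when slide entered the model as a block (-0.47, adjusted p = 0.0592). The glutamine carriers Slc38a1 and Slc38a2, whose genes lie side by side on chromosome 15, are given whatever their values. Slc38a1 averaged 6.18 ± 0.37 in ITNK, 6.23 ± 0.12 in LAK and 6.25 ± 0.26 in DN3 (SD, n = 4 each), with adjusted p of 0.748, 0.846 and 0.927 and a 95% interval of -0.44 to 0.30 for ITNK minus DN3. Slc38a2 was at 10.49 ± 0.22 in ITNK, 9.99 ± 0.26 in LAK and 10.42 ± 0.14 in DN3 (SD, n = 4 each). It was higher in ITNK than in LAK (0.51 ± 0.14, adjusted p = 0.0135), a call lost when slide entered the model as a block (0.49, adjusted p = 0.0589). It was lower in LAK than in DN3 (-0.43 ± 0.14, adjusted p = 0.017), a call lost when LAK 1 was left out (adjusted p up to 0.0586) and when slide entered the model as a block (-0.41, adjusted p = 0.222) and after median centring. A second probe of Slc38a2 gave -0.08 for ITNK minus LAK (adjusted p = 0.622). The taurine carrier Slc6a6, named after its values were seen, passed in no comparison, at 11.05 ± 0.16 in ITNK, 11.07 ± 0.07 in LAK and 10.95 ± 0.11 in DN3 (SD, n = 4 each), with an interval of -0.12 to 0.32 for ITNK minus DN3. Slc7a6, an exchanger of cationic and neutral amino acids, passed in no comparison either, with an interval of -0.46 to 0.09. The paired-chain carriers of large neutral amino acids could not be followed, since the probe of their heavy chain Slc3a2 was detected on 0 arrays and the light chain Slc7a5 was not analysed here.

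In the class of nucleosides, vitamins and related solutes, carriers of riboflavin, thiamine and folate were higher in ITNK than in DN3, and the nucleoside carriers Slc29a1 and Slc29a3 were lower. The vitamin carrier Slc5a6, placed with the sugars by its family number, was lower, as given above. Of 12 measured, 3 were higher and 6 lower in ITNK than in DN3 (median -0.39), 5 passed against LAK, all higher in ITNK (median 0.29), and 3 were higher and 7 lower in LAK than in DN3 (median -0.42). In that order 75%, 41.7% and 83.3% of the class passed, against 51.7%, 33.7% and 60.5% of all genes. The difference in shares was not tested. Slc52a3, a riboflavin importer, read 7.89, 8.15, 8.24 and 8.63 on the ITNK arrays, 7.67, 7.90, 8.65 and 7.67 on the LAK arrays and 4.78, 4.87, 4.84 and 4.51 on the DN3 arrays. ITNK and LAK overlapped, and 0 DN3 arrays detected the gene, so it was at least 11.2-fold higher in ITNK than in DN3 (adjusted p = 1.38e-08) and at least 9.35-fold higher in LAK (adjusted p = 1.01e-08). Slc19a1, the reduced folate carrier, was higher than in DN3 by 0.90 ± 0.14 (adjusted p = 0.000133) in ITNK and by 1.18 ± 0.14 (adjusted p = 6.33e-06) in LAK. The thiamine carrier Slc19a2, named after its values were seen, was at 7.88 ± 0.38 in ITNK, 7.22 ± 0.27 in LAK and 6.39 ± 0.15 in DN3 (SD, n = 4 each), with 1.50 ± 0.18 (adjusted p = 1.04e-05) for ITNK against DN3 and 0.66 ± 0.18 (adjusted p = 0.0108) for ITNK against LAK (adjusted p = 0.0515 within slide 1). Its difference between LAK and DN3 (0.84, adjusted p = 0.00104) was lost when slide entered the model as a block (0.77, adjusted p = 0.0753).

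Slc29a1, the equilibrative transporter that takes up adenosine and other nucleosides at the cell surface, read 8.98, 8.66, 8.74 and 8.48 on the ITNK arrays, 7.75, 7.84, 7.02 and 7.96 on the LAK arrays and 10.27, 10.29, 10.03 and 10.24 on the DN3 arrays. The groups did not overlap, and ITNK lay between DN3 and LAK, with -1.50 ± 0.18 (adjusted p = 1.03e-05) for ITNK against DN3, 1.07 ± 0.18 (adjusted p = 0.000344) for ITNK against LAK and -2.57 ± 0.18 (adjusted p = 2.34e-08) for LAK against DN3. A second probe gave -1.08 for ITNK minus DN3 (adjusted p = 0.000457), and 0.39 for ITNK minus LAK (adjusted p = 0.156). Slc29a3, its relative of the lysosome, read 7.26, 7.13, 6.81 and 7.16 on the ITNK arrays, 6.09, 6.14, 6.36 and 6.53 on the LAK arrays and 8.51, 8.20, 8.13 and 8.12 on the DN3 arrays. The order was the same, with -1.15 ± 0.13 (adjusted p = 8.44e-06), 0.81 ± 0.13 (adjusted p = 0.00032) and -1.96 ± 0.13 (adjusted p = 1.98e-08) in the same 3 comparisons. Slc23a4, a nucleobase carrier in the rat, was at 5.66, 4.89, 4.72 and 4.94 on the ITNK arrays, 4.29, 4.29, 4.24 and 4.35 on the LAK arrays and 6.74, 6.67, 6.47 and 6.71 on the DN3 arrays. It was lower in ITNK than in DN3 (-1.59 ± 0.16, adjusted p = 2.46e-06), but 1 ITNK array alone detected it, so the size of that difference rests mostly on values near background. In LAK, with 0 arrays, it was at least 4.89-fold lower than in DN3 (adjusted p = 2.23e-08). Only its DN3 arrays brought Slc23a4 through the detection filter, which favoured this direction. Slc28a2b, of the concentrative nucleoside transporter family, was at least 3.09-fold lower in ITNK than in DN3 (adjusted p = 7.06e-06). With 0 ITNK arrays detecting it, Slc28a2b passed the detection filter through arrays of other groups, which favoured this direction. It has a close relative, Slc28a2, and the probe may read either. The choline carrier-like Slc44a2, named after its values were seen, was lower in ITNK than in DN3 (-0.46 ± 0.10, adjusted p = 0.00134). Slc5a9, Slc43a1, Slc29a1, Slc29a3 and Slc23a4, among others, were highest in DN3 and lowest in LAK. So were the summed stromal markers (690 to 1207 in ITNK, 35.1 to 43.1 in LAK and 1444 to 5102 in DN3). The summed markers of T cell precursors had this order too (8389 to 10730 in ITNK, 590 to 950 in LAK and 20216 to 21118 in DN3). The part of stromal RNA or of cell type in these differences was not tested.

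**Figure D4:**
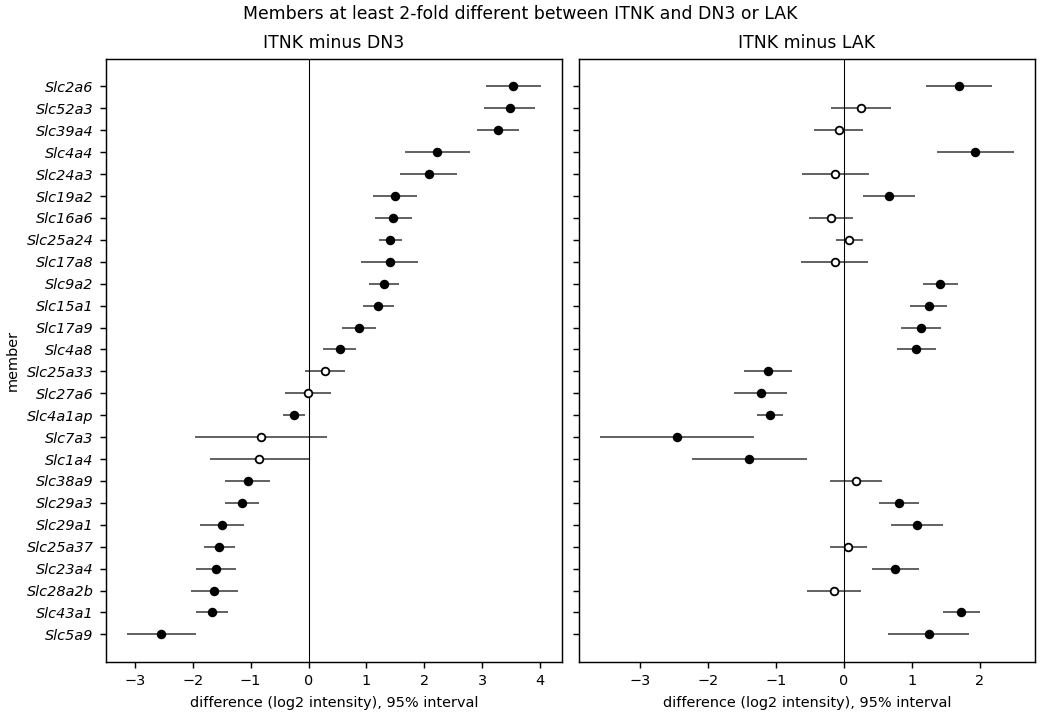
Difference in log2 intensity (points, x axis) with its 95% interval (lines) for the 26 members at least 2-fold different between ITNK and DN3 or between ITNK and LAK (rows), ITNK minus DN3 on the left and ITNK minus LAK on the right. Filled points passed at an adjusted p under 0.05. Genes detected on 0 arrays of a group stand at their fitted difference, which is no bound. Slc52a3, Slc39a4, Slc24a3, Slc16a6, Slc25a24 and Slc17a8 lie far right for DN3 and near 0 for LAK.

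Zinc carriers parted by member. The members higher in ITNK than in DN3 included Slc39a4, Slc39a6 and Slc30a1, and Slc39a3, Slc39a11, Slc39a13 and the metal carriers Slc11a1 and Slc11a2 were lower. That made 5 higher and 5 lower of 14 metal carriers (median -0.14). Against LAK 2 were higher and 4 lower in ITNK (median 0.00), and 3 were higher and 2 lower in LAK than in DN3 (median 0.16). Over the 3 comparisons 71.4%, 42.9% and 35.7% of the class passed, against 51.7%, 33.7% and 60.5% of all genes. Slc39a4, the zinc importer whose loss in human intestine causes zinc deficiency, read 8.48, 8.61, 8.68 and 8.84 on the ITNK arrays, 8.94, 8.62, 8.95 and 8.39 on the LAK arrays and 5.39, 5.69, 5.53 and 4.92 on the DN3 arrays. ITNK and LAK overlapped and both stood above every DN3 array, by 3.27 ± 0.17 (adjusted p = 3.92e-09) for ITNK and 3.34 ± 0.17 (adjusted p = 7.69e-10) for LAK. The interval of ITNK minus LAK was -0.43 to 0.29. Slc30a1, the zinc exporter of the plasma membrane, was detected on 4 ITNK arrays, 1 LAK array and 0 DN3 arrays, and was at least 1.43-fold higher in ITNK than in DN3 (adjusted p = 0.00789). Only its ITNK arrays brought Slc30a1 through the detection filter, so its direction was fixed by the filter. Slc39a3, another zinc importer, was detected on the 4 DN3 arrays alone, so that its direction too was fixed by the filter, and was at least 1.7-fold lower in ITNK and at least 1.61-fold lower in LAK.

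Slc39a13, a zinc carrier of internal membranes, was lower in ITNK than in DN3 (-0.93 ± 0.16, adjusted p = 0.000274) and than in LAK (-0.66 ± 0.16, adjusted p = 0.00598, and 0.0635 within slide 1). Slc39a6, a zinc importer of the cell surface, was higher in ITNK than in DN3 (0.52 ± 0.13, adjusted p = 0.00352). Against LAK (0.39, adjusted p = 0.0297) its call was lost when LAK 2, ITNK 2, ITNK 3 or ITNK 4 was left out (adjusted p up to 0.0929) and when slide entered the model as a block (0.34, adjusted p = 0.139). Slc39a11 was lower in ITNK than in LAK (-0.62 ± 0.13, adjusted p = 0.00215), and its call against DN3 (-0.39, adjusted p = 0.024) was lost when ITNK 1, ITNK 2, ITNK 4, DN3 2 or DN3 3 was left out (adjusted p up to 0.0784) and when slide entered the model as a block (-0.27, adjusted p = 0.179). Slc30a6, a zinc carrier of the Golgi, was lower in ITNK than in LAK (-0.41 ± 0.11, adjusted p = 0.00872), a call lost when slide entered the model as a block (-0.37, adjusted p = 0.0542). Slc11a2, which carries ferrous iron and other divalent metals, was highest in DN3, at 6.91 ± 0.24 in ITNK, 6.47 ± 0.28 in LAK and 7.46 ± 0.14 in DN3 (SD, n = 4 each). It differed by -1.0 ± 0.15 (adjusted p = 5.79e-05) between LAK and DN3. The difference of ITNK from DN3 (-0.56, adjusted p = 0.00678) was lost when slide entered the model as a block (-0.46, adjusted p = 0.0607), and that from LAK (0.44, adjusted p = 0.0384) was lost when LAK 3, LAK 4, ITNK 1 or ITNK 3 was left out (adjusted p up to 0.119) and when slide entered the model as a block (0.34, adjusted p = 0.202). Its phagosomal relative Slc11a1 was lower in ITNK than in LAK (-0.54 ± 0.14, adjusted p = 0.00987), and its call against DN3 (-0.42, adjusted p = 0.0244) was lost when ITNK 1, DN3 3 or DN3 4 was left out (adjusted p up to 0.0797) and when slide entered the model as a block (-0.29, adjusted p = 0.181).

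Genes that handle iron and zinc outside the family were set beside these carriers, as a list chosen with earlier results known. Of 11 listed, 9 were measured. Against DN3 5 passed in ITNK, all higher (median 0.62), and 5 in LAK, all higher (median 0.39). These shares of 55.6% lie near those of all genes (51.7% and 60.5%). Between ITNK and LAK 2 were higher and 3 lower in ITNK (median 0.00), 55.6% of the list against 33.7% of all genes. The metallothionein Mt1, which binds zinc and whose transcription zinc raises, read 9.84, 9.73, 9.97 and 10.76 on the ITNK arrays, 13.14, 13.02, 13.86 and 13.22 on the LAK arrays and 8.68, 7.57, 8.06 and 8.30 on the DN3 arrays. The 3 groups did not overlap, with 1.92 ± 0.26 (adjusted p = 3.36e-05) for ITNK against DN3 and -3.23 ± 0.26 (adjusted p = 3.54e-07) for ITNK against LAK, so Mt1 separated ITNK from LAK where Slc39a4 did not. Mtf1, the zinc-sensing transcription factor, was highest in ITNK, by 1.05 ± 0.16 (adjusted p = 7.02e-05) against DN3 and 0.97 ± 0.16 (adjusted p = 0.000239) against LAK. The ferritin light chain Ftl1 was at 10.14 ± 0.08 in ITNK, 10.79 ± 0.41 in LAK and 8.99 ± 0.08 in DN3 (SD, n = 4 each), with 1.15 ± 0.16 (adjusted p = 4.25e-05) for ITNK against DN3.

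Ion and pH carriers rose and fell in like numbers. Of 13, 5 were higher and 4 lower in ITNK than in DN3 (median 0.14), 4 higher and 2 lower in ITNK than in LAK (median 0.06), and 3 higher and 4 lower in LAK than in DN3 (median -0.11). As shares these were 69.2%, 46.2% and 53.8%, against 51.7%, 33.7% and 60.5% of all genes. Slc24a3, which exchanges sodium for calcium and potassium, read 7.45, 7.72, 7.82 and 8.06 on the ITNK arrays, 7.83, 7.34, 8.55 and 7.83 on the LAK arrays and 6.08, 5.54, 5.28 and 5.83 on the DN3 arrays. All ITNK and LAK arrays stood above DN3, by 2.08 ± 0.23 (adjusted p = 5.19e-06) for ITNK and 2.20 ± 0.23 (adjusted p = 1.57e-06) for LAK. Slc4a8, a sodium-driven chloride bicarbonate exchanger, was at 5.59, 5.46, 6.07 and 5.86 on the ITNK arrays, 4.72, 4.91, 4.53 and 4.54 on the LAK arrays and 5.24, 5.11, 5.23 and 5.24 on the DN3 arrays. It was higher in ITNK than in DN3 (0.54 ± 0.13, adjusted p = 0.00386) and at least 2.1-fold higher than in LAK (adjusted p = 2.65e-05), where 0 arrays detected it. Its difference between LAK and DN3 was lost when slide entered the model as a block (-0.09, adjusted p = 0.737). Slc4a2, a chloride bicarbonate exchanger named after its values were seen, was lower in ITNK than in DN3 (-0.71 ± 0.10, adjusted p = 3.23e-05).

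The sodium-proton exchangers did not move together. Beside Slc9a2, Slc9a7 of the Golgi network, named after its values were seen, was at least 1.76-fold higher in ITNK than in DN3 (adjusted p = 0.000458), where 0 arrays detected it. Slc9a9, of endosomes, read 7.04, 6.45, 6.46 and 6.31 on the ITNK arrays, 5.66, 5.81, 6.08 and 5.63 on the LAK arrays and 7.42, 7.42, 7.77 and 7.22 on the DN3 arrays. ITNK lay between the other groups and overlapped neither, with -0.89 ± 0.17 (adjusted p = 0.000483) against DN3, 0.77 ± 0.17 (adjusted p = 0.00256) against LAK and -1.66 ± 0.17 (adjusted p = 1.02e-06) for LAK against DN3. The potassium chloride cotransporter Slc12a7, detected on 1 ITNK array, 0 LAK arrays and 4 DN3 arrays, was lower in ITNK than in DN3 (-0.56 ± 0.16, adjusted p = 0.00773) and at least 1.8-fold lower in LAK than in DN3 (adjusted p = 0.000297). Only its DN3 arrays brought Slc12a7 through the detection filter, which favoured this direction. The sodium potassium chloride cotransporter Slc12a2 was higher in LAK than in DN3 (0.47 ± 0.13, adjusted p = 0.00535), and lower in ITNK than in LAK (-0.42, adjusted p = 0.0192), a call lost when LAK 3, LAK 4 or ITNK 2 was left out (adjusted p up to 0.0548) and within slide 1 (adjusted p = 0.0746).

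Among carriers of organic acids, cations and lipids, Slc16a6 rose in both killer populations and the carnitine carrier fell. Of 8, 3 passed for ITNK against DN3 (1 higher, 2 lower, median 0.05), 3 against LAK (1 higher, 2 lower, median -0.09) and 6 for LAK against DN3 (4 higher, 2 lower, median 0.19). The shares were 37.5%, 37.5% and 75%, against 51.7%, 33.7% and 60.5% of all genes. Slc16a6, a monocarboxylate carrier that exports ketone bodies from liver in zebrafish, read 7.25, 7.61, 7.77 and 7.98 on the ITNK arrays, 7.79, 7.79, 7.84 and 7.93 on the LAK arrays and 5.85, 6.42, 6.21 and 6.26 on the DN3 arrays. All ITNK and LAK arrays stood above DN3, by 1.47 ± 0.15 (adjusted p = 2.8e-06) for ITNK and 1.65 ± 0.15 (adjusted p = 4.38e-07) for LAK, and its 3 detected probes passed the same way in both. The monocarboxylate carriers Slc16a1 and Slc16a3 were detected on 0 and 1 arrays and were not measured. Emb, embigin, an ancillary protein of such carriers, was higher in ITNK than in DN3 (0.63 ± 0.21, adjusted p = 0.0208) and than in LAK (0.79 ± 0.21, adjusted p = 0.00915).

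Slc22a5, the carnitine importer, read 6.31, 6.47, 6.59 and 6.60 on the ITNK arrays, 6.39, 6.61, 6.64 and 6.29 on the LAK arrays and 7.46, 7.26, 7.34 and 7.36 on the DN3 arrays, with -0.86 ± 0.11 (adjusted p = 1.48e-05) for ITNK against DN3 and -0.87 ± 0.11 (adjusted p = 7.55e-06) for LAK against DN3. A second probe of Slc22a5 did not pass, at -0.15 for ITNK minus DN3 (adjusted p = 0.318), so the probes of this gene disagree. Slc27a6, of the fatty acid transport family, passed the detection filter through its 4 LAK arrays alone, which fixed its direction. It was at 4.40, 4.31, 4.32 and 4.56 on the ITNK arrays, 5.16, 5.51, 6.30 and 5.51 on the LAK arrays and 4.34, 4.38, 4.36 and 4.53 on the DN3 arrays. It was at least 2.32-fold lower in ITNK than in LAK and at least 2.28-fold higher in LAK than in DN3. Slc27a4 of the same family was higher in LAK than in DN3 (0.65 ± 0.15, adjusted p = 0.00193), a call lost when slide entered the model as a block (0.52, adjusted p = 0.143), and lower in ITNK than in LAK (-0.47, adjusted p = 0.0264), a call lost when LAK 1, LAK 3 or ITNK 3 was left out (adjusted p up to 0.0727) and when slide entered the model as a block (-0.41, adjusted p = 0.134). Slc10a3 was higher in ITNK than in LAK by 0.31 ± 0.10 (adjusted p = 0.0269), a call lost when LAK 2, LAK 3, ITNK 2 or ITNK 4 was left out (adjusted p up to 0.0734) and when slide entered the model as a block (0.27, adjusted p = 0.115).

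Of the vesicular and lysosomal carriers, Slc17a9 and Slc17a8 were higher in ITNK than in DN3. All 3 measured passed, where 51.7% of all genes did, 2 higher and 1 lower (median 0.87), and the lower one, Slc17a5, lost its call under several alternatives. Slc17a9, which loads ATP into secretory vesicles, was highest in ITNK, at 7.63, 7.94, 7.46 and 7.88 on the ITNK arrays, 6.64, 6.40, 6.69 and 6.64 on the LAK arrays and 6.58, 6.91, 7.14 and 6.79 on the DN3 arrays. No ITNK array fell within another group. The difference was 0.87 ± 0.14 (adjusted p = 0.000133) against DN3 and 1.13 ± 0.14 (adjusted p = 2.08e-05) against LAK, and a second probe gave 0.70 and 0.98. Slc17a8, a vesicular glutamate carrier, read 6.26, 5.86, 5.93 and 6.03 on the ITNK arrays, 5.73, 5.78, 7.06 and 6.06 on the LAK arrays and 4.71, 4.64, 4.43 and 4.69 on the DN3 arrays. It was at least 2.64-fold higher in ITNK than in DN3 (adjusted p = 0.000168) and at least 2.91-fold higher in LAK (adjusted p = 4.97e-05), with LAK 3 the highest array. Slc17a5, the lysosomal sialic acid exporter, was lower in ITNK than in DN3 (-0.36 ± 0.14, adjusted p = 0.0481), a call lost when LAK 2, LAK 4, ITNK 1, ITNK 2, ITNK 4, DN3 1, DN3 3 or DN3 4 was left out (adjusted p up to 0.137) and when slide entered the model as a block (-0.29, adjusted p = 0.195). Between LAK and DN3 (-0.61, adjusted p = 0.00191) it was lost when slide entered the model as a block (-0.48, adjusted p = 0.14). Of the 3 carriers 1, Slc17a9, passed between ITNK and LAK (median 0.25, all genes 33.7%), and 2 passed between LAK and DN3 (median -0.26, all genes 60.5%).

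The 27 mitochondrial carriers did not shift one way as a class, while single members moved by more than 2-fold. In ITNK 7 were higher and 5 lower than in DN3 (median 0.07), and 6 were higher and 3 lower than in LAK (median -0.04). In LAK 9 were higher and 6 lower than in DN3 (median -0.07). These counts made 44.4%, 33.3% and 55.6% of the class, near the 51.7%, 33.7% and 60.5% of all genes. Slc25a37, which imports iron into mitochondria for haem and iron-sulphur clusters, read 6.42, 6.29, 6.28 and 5.82 on the ITNK arrays, 6.11, 6.17, 6.31 and 5.96 on the LAK arrays and 7.81, 7.64, 7.80 and 7.72 on the DN3 arrays. ITNK and LAK overlapped and stood below every DN3 array, with -1.54 ± 0.13 (adjusted p = 3.55e-07) for ITNK against DN3 and -1.61 ± 0.13 (adjusted p = 8.91e-08) for LAK against DN3. Hba-a1, a haemoglobin gene, did not follow this order, being highest in ITNK as given above. Slc25a12, a calcium-regulated aspartate glutamate carrier of the malate aspartate shuttle, read 6.75, 6.98, 6.80 and 6.93 on the ITNK arrays, 6.22, 6.46, 6.48 and 6.38 on the LAK arrays and 7.73, 7.80, 7.68 and 7.82 on the DN3 arrays. The 3 groups did not overlap, with -0.89 ± 0.09 (adjusted p = 3.26e-06), 0.48 ± 0.09 (adjusted p = 0.00126) and -1.37 ± 0.09 (adjusted p = 2.03e-08) for ITNK against DN3, ITNK against LAK and LAK against DN3.

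Slc25a24, a calcium-regulated carrier of ATP-magnesium and phosphate, was detected on all ITNK and LAK arrays and 0 DN3 arrays. It was at least 2.54-fold higher in ITNK than in DN3 (adjusted p = 3.43e-08) and at least 2.4-fold higher in LAK (adjusted p = 2.19e-08), with an interval of -0.12 to 0.28 for ITNK minus LAK. Slc25a33, a carrier of pyrimidine nucleotides, was highest in LAK, at 7.09, 7.30, 7.0 and 7.35 on the ITNK arrays, 8.05, 8.16, 8.73 and 8.26 on the LAK arrays and 6.75, 7.30, 6.81 and 6.74 on the DN3 arrays, with -1.12 ± 0.16 (adjusted p = 0.000106) for ITNK against LAK and 1.40 ± 0.16 (adjusted p = 4.35e-06) for LAK against DN3. ITNK and DN3 overlapped (0.29 ± 0.16, adjusted p = 0.157). Slc25a39, which imports glutathione into mitochondria, was also highest in LAK, with -0.57 ± 0.13 (adjusted p = 0.00391) for ITNK against LAK and 0.90 ± 0.13 (adjusted p = 3.74e-05) for LAK against DN3. Its call between ITNK and DN3 (0.33, adjusted p = 0.0459) was lost when LAK 2, LAK 4, ITNK 1, ITNK 2, ITNK 3, ITNK 4, DN3 3 or DN3 4 was left out (adjusted p up to 0.145) and when slide entered the model as a block (0.32, adjusted p = 0.131). The glycine carrier Slc25a38 and the folate carrier Slc25a32 were named after their values were seen. Slc25a38 was higher in ITNK than in DN3 (0.57 ± 0.11, adjusted p = 0.000644), and Slc25a32, detected on 0 DN3 arrays, was at least 1.47-fold higher in ITNK (adjusted p = 0.00128).

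The phosphate carrier Slc25a3 was higher than in DN3 in ITNK (0.43 ± 0.11, adjusted p = 0.00419, and 0.0564 within slide 2) and in LAK (0.72 ± 0.11, adjusted p = 5.07e-05). A second probe of Slc25a3 gave 0.19 for LAK minus DN3 (adjusted p = 0.2). The ADP ATP carrier Slc25a5 passed in no comparison, at 12.67 ± 0.06 in ITNK, 12.62 ± 0.08 in LAK and 12.82 ± 0.08 in DN3 (SD, n = 4 each). Its sign for ITNK minus DN3 (-0.15) and LAK minus DN3 (-0.20) turned under median centring, where both passed. Its relative Slc25a4 was detected on 0 arrays. Slc25a47 was detected on 1 ITNK array, 0 LAK arrays and 4 DN3 arrays, and was lower in ITNK than in DN3 (-0.68 ± 0.13, adjusted p = 0.000542). It passed the detection filter only through its DN3 arrays, which favoured this direction, so its values are a description. Slc25a53 was higher in ITNK than in LAK (0.55 ± 0.10, adjusted p = 0.000978), and its call between LAK and DN3 (-0.47, adjusted p = 0.00128) was lost when slide entered the model as a block (-0.30, adjusted p = 0.18).

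Of 4 nucleotide sugar carriers, which feed the Golgi with activated sugars, 0 passed in limma between ITNK and DN3 (all genes 51.7%), and 0 had an unadjusted p under 0.05 (median 0.06). Slc35a3, which carries UDP-N-acetylglucosamine, was lower in ITNK than in LAK (-0.36 ± 0.12, adjusted p = 0.0304), a call lost when LAK 1, ITNK 1 or ITNK 4 was left out (adjusted p up to 0.0931) and when slide entered the model as a block (-0.37, adjusted p = 0.0826), and higher in LAK than in DN3 (0.40 ± 0.12, adjusted p = 0.00943), a call lost when slide entered the model as a block (0.42, adjusted p = 0.129). It was the 1 member of the class called between ITNK and LAK (median -0.13, all genes 33.7%) and 1 of 2 between LAK and DN3 (median 0.27, all genes 60.5%). Slc66a1 and Slc66a2, put in no class, did not pass in limma in a comparison with ITNK, with 0 at an unadjusted p under 0.05. Among members that are not transporters, Slc4a1ap was higher in LAK than in DN3 (0.84 ± 0.09, adjusted p = 2.13e-06) and lower in ITNK than in LAK (-1.09 ± 0.09, adjusted p = 4.56e-07). Its call between ITNK and DN3 (-0.25, adjusted p = 0.0321) was lost when ITNK 1, ITNK 4, DN3 1, DN3 2 or DN3 3 was left out (adjusted p up to 0.0904) and when slide entered the model as a block (-0.22, adjusted p = 0.117). The scaffold Slc9a3r1 was higher in ITNK than in LAK (0.53 ± 0.13, adjusted p = 0.00592) and lower in LAK than in DN3 (-0.66 ± 0.13, adjusted p = 0.000553). The related scaffold Slc9a3r2 was higher in ITNK than in DN3 (0.63 ± 0.16, adjusted p = 0.00431), and its call against LAK (0.50, adjusted p = 0.027) was lost when LAK 2, LAK 4 or ITNK 1 was left out (adjusted p up to 0.0889) and when slide entered the model as a block (0.52, adjusted p = 0.0753).

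**Figure D5:**
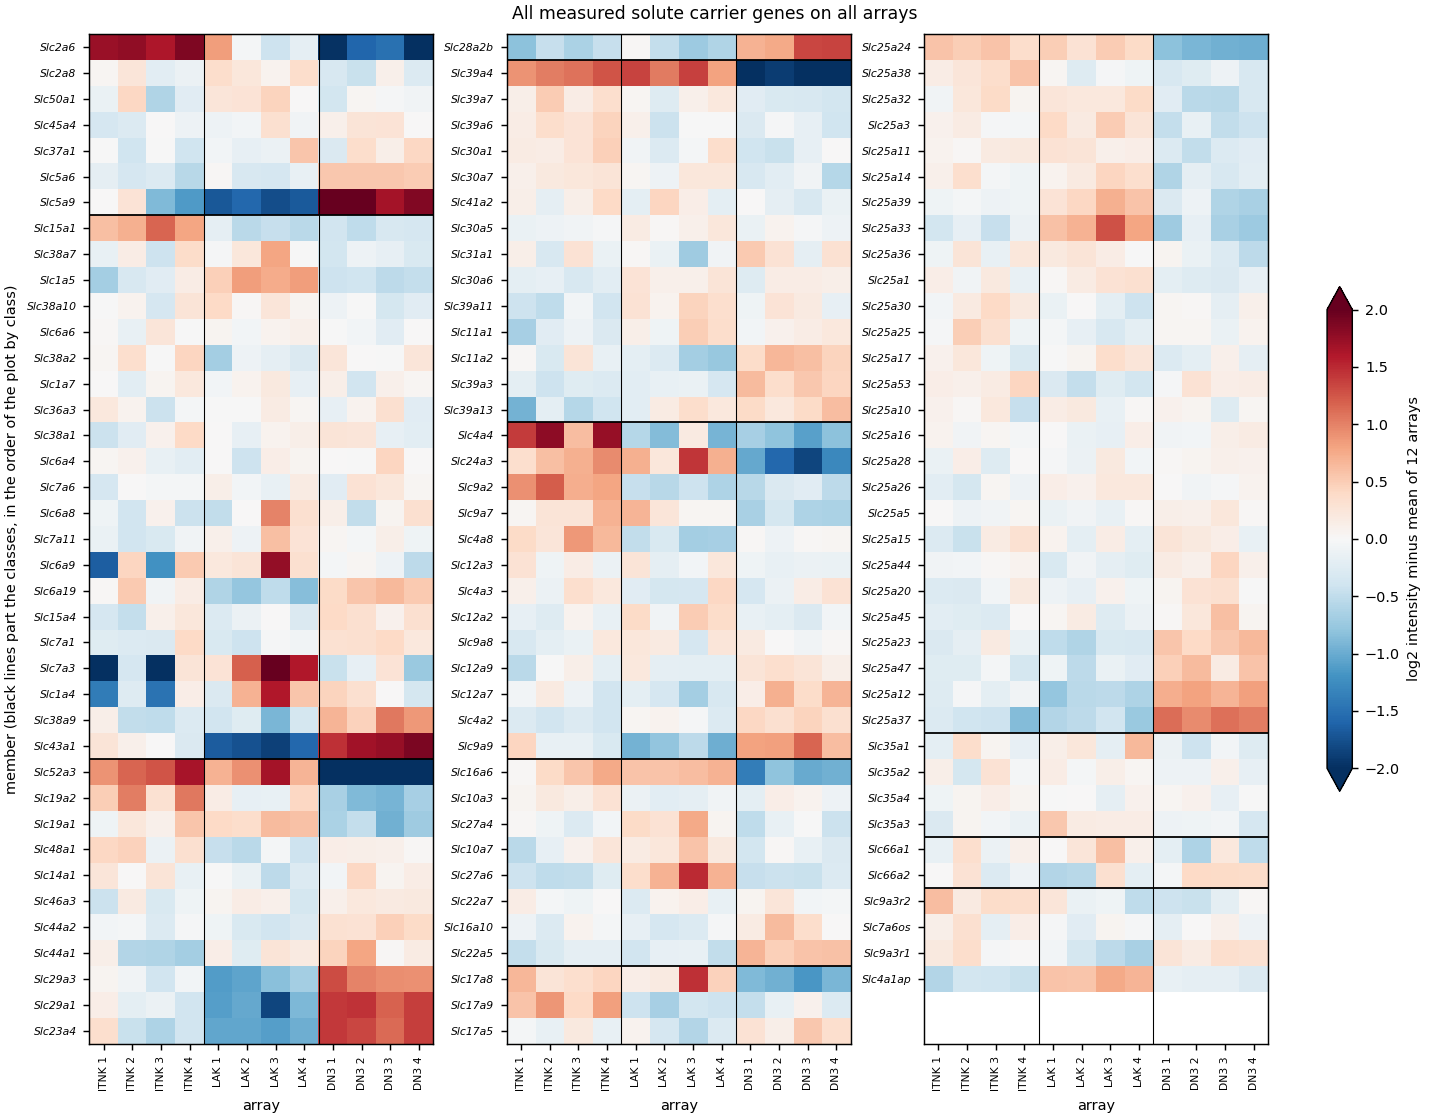
Log2 intensity minus the mean of the 12 arrays (colour, red above and blue below the mean, capped at 2 in each direction) for all 115 members (rows) on the ITNK, LAK and DN3 arrays (columns). Black lines part the classes, and within a class members run from higher to lower ITNK minus DN3 difference. Slc2a6 stands out in red in ITNK, Slc39a4 and Slc52a3 in both ITNK and LAK, and Slc5a9, Slc43a1 and Slc29a1 in DN3.

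Transporters outside the family were counted for comparison. Of 28 related transporters with other symbols, 19 were measured, and 7 were higher and 3 lower in ITNK than in DN3 (median 0.14), 5 higher and 1 lower than in LAK (median 0.10), and 5 higher and 6 lower in LAK than in DN3 (median 0.03). The shares called were 52.6%, 31.6% and 57.9%, near the 51.7%, 33.7% and 60.5% of all genes. Of 17 ABC transporters, pumps that use ATP, 4 were higher and 7 lower in ITNK than in DN3 (median -0.14), 5 higher and 6 lower than in LAK (median -0.12), and 3 higher and 6 lower in LAK than in DN3 (median -0.05). For these the shares were 64.7%, 64.7% and 52.9%, and the difference from all genes was not tested. Of 13 ion pumps 6 were measured, and 3, 3 and 2 passed in these comparisons (50%, 50% and 33.3%, medians -0.10, -0.18 and 0.04).

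Of the members 29 had more than 1 detected probe, and in 0 of them were probes called in opposite directions in limma. All detected probes were called the same way in 12 members between ITNK and DN3, 5 between ITNK and LAK and 16 between LAK and DN3, while the probe used was called and another was not in 5, 5 and 7 in the same comparisons. Of the 208 symbols not measured, 175 were detected on 0 arrays, 19 on 1, 7 on 2 and 7 on 3. Just inside the threshold, at 4 arrays, stood Slc15a1 and Slc9a2 (the 4 ITNK arrays), Slc27a6 (the 4 LAK arrays), Slc39a3 (the 4 DN3 arrays), and Slc35a1, Slc37a1, Slc6a8 and Slc7a6os on arrays of several groups. Just outside, at 3, stood Slc17a6, Slc1a2 and Slc7a7 (3 LAK arrays each), Slc27a1 (3 DN3 arrays), and Slc26a6, Slc37a2 and Slc39a9. Among these Slc7a7, a carrier of cationic amino acids, averaged 4.36 in ITNK, 5.39 in LAK and 4.30 in DN3, and the fatty acid carrier Slc27a1 averaged 4.86 in ITNK, 4.50 in LAK and 5.49 in DN3. The phosphate carrier Slc20a1 was detected on 1 array and the iron exporter Slc40a1 on 0.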

How the data were processed

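RNA of ITNK, LAK and DN3 cells (4 arrays each) was amplified to biotinylated cRNA and hybridised to Illumina mouse bead arrays, per the labels' protocols. The authors deposited the mean bead intensity of each probe without normalisation, per the file headers, and beside it a detection value, the fraction of negative control beads that the probe exceeds. A second deposited table holds log2 values processed by the authors in a way not given in the sources used here, and served as an alternative. Intensities were corrected with normexp on negative controls inferred from the detection values, offset by 16, quantile normalised and put on the log2 scale with neqc of limma 3.58.1 in R 4.3.3. Probes detected on at least 4 of 12 arrays with 1 gene symbol in the platform annotation were kept. Of 45281 probes, 34880 had 1 symbol, 18 several and 10376 none in that annotation. The probe with the highest mean stood for each gene. One linear model over the 12 arrays gave the 3 comparisons, with moderated two-sided tests (lmFit and eBayes) and Benjamini-Hochberg adjustment over 8100 genes at 0.05. The number of arrays, not read depth, limits the precision. The fit was tested on simulated data.

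The members, classes and gene lists were chosen with earlier results of these data known. Named were, per class and comparison, the 3 members (4 in classes of over 15) with the largest difference among those called without overlap of the groups, those at least 4-fold different, those highest or lowest in ITNK by at least 2-fold, and a fixed set, which made 58. A further 8 were named after their values were seen. Alternatives covered background, offset, scaling, the detection filter, the choice of probe, slide, replicate number and each array left out. The replicate numbers were checked, and the values did not show that they pair the arrays.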

Additional observations from a re-analysis of the deposited data

Results flagged for a closer look

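In 175 sets of 4 arrays (1 named member in 1 group), 11 had 1 array whose gap to the nearest of the others took up more of the whole range than Dixon's critical value allows, where chance gives about 5% of sets. All values are log2 intensities. Slc6a9 read 8.23 on LAK 3, against 6.69 to 6.80 on the other LAK arrays. Slc7a1 read 5.22 on ITNK 4, against 4.54 to 4.58 on the other ITNK arrays. Slc7a6 read 4.81 on ITNK 1, where the rest of the group read 5.11 to 5.17. Slc44a2 read 10.52 on ITNK 3, with 10.74 to 10.77 on its fellow arrays. Slc35a3 stood apart in LAK 1, at 5.75 against 5.36 on the rest, and in DN3 4, at 4.87 against 5.11 to 5.14. Slc25a32 read 5.52 on LAK 4, against 5.34 to 5.37. In DN3, array 2 was high in Slc25a33, at 7.30 against 6.74 to 6.81, and low in Slc4a8, at 5.11 against 5.23 to 5.24. Slc30a6 read 5.72 on DN3 1, against 6.10 to 6.13. Slc5a6 read 6.63 on DN3 4, against 6.66 to 6.67, a gap that is small in itself.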

How the results depend on the processing

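Members at least 2-fold different between ITNK and DN3 numbered 11 with no background correction, 11 with an offset of 50 and 11 in the authors' deposited table, against 19, and between ITNK and LAK 4, 4 and 3 against 14. Between LAK and DN3 the deposited table gave 15 against 23. The matching counts over all genes are not given here, so a fall in the members alone and a fall in all genes cannot be told apart. With only probes detected on all 12 arrays, which tests fewer members (64), 33, 27 and 35 passed for ITNK against DN3, ITNK against LAK and LAK against DN3, and 7, 6 and 9 were at least 2-fold different. Of all 5846 genes in that fit 3109, 1787 and 3524 passed. In the main fit 9.15%, 4.59% and 14.2% of the 5835 genes detected on all 12 arrays were at least 2-fold different. Within slide 1, with fewer arrays, 27 passed for ITNK against LAK, as did 1857 of all 8100 genes. With slide as a block 42 passed for LAK against DN3 (3322 of all 8100 genes), a comparison that then rests on the ITNK arrays shared by both slides. Under median centring Slc25a5 turned to 0.37 (adjusted p = 0.0273) for ITNK against DN3 and 0.45 (adjusted p = 0.0073) for LAK against DN3, and Slc38a2 to 0.019 (adjusted p = 0.931) for LAK against DN3; the cause was not tested. Leaving out 1 array at a time gave 47 to 58 members called and 18 to 21 at least 2-fold different for ITNK against DN3, 37 to 44 and 11 to 16 for ITNK against LAK, and 57 to 67 and 22 to 25 for LAK against DN3. Of all 8100 genes 3718 to 4383, 2352 to 2720 and 4568 to 4903 were then called. The replicate block gave 52 and 19, 40 and 14, and 64 and 23, with 4024, 2558 and 4771 of all 8100 genes called. Same-numbered arrays deviated together with correlations of -0.34 to 0.21, and differently numbered arrays with -0.26 to 0.34. These values do not show a pairing, and they cannot exclude shared animals or cultures.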
